A study of Mus musculus with 27 samples.

Results

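Of the 37310 gene rows of the expected count table from mouse embryonic fibroblasts (MEFs), 10 hold the genes that write, read and erase DNA methylation or recruit the silencing machinery that works with it. They are *Dnmt1*, *Uhrf1*, *Dnmt3a*, *Dnmt3b*, *Tet1*, *Tet2*, *Tet3*, *Trim28*, *Setdb1* and *Smchd1*. They were chosen by symbol, each matched 1 row, and all 10 passed the filter on low counts that left 15387 genes for testing. RNA was sequenced from 4 groups of 3 libraries, namely female wild-type (WT), female Firre KO, male WT and male Firre KO MEFs. In the KO groups recombination between loxP sites had removed the whole *Firre* locus, an X-linked long noncoding RNA gene, together with its promoter, while the WT groups kept it. MEFs are primary cultures of mid-gestation embryos from which the viscera, head and limbs had been removed, so a library can hold more than 1 cell type, and fewer cells of a type cannot be told apart from less RNA per cell. The sources do not say how many embryos stand behind the 3 RNA libraries of a group, so the p-values measure the spread between these libraries, which may be technical, and sex cannot be told apart from the embryos or cultures of each sex.

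In mammals DNMT3A and DNMT3B place methyl groups on cytosines of CpG dinucleotides, UHRF1 recognises the half-methylated CpGs left by replication, and DNMT1 completes them, so the mark passes to both daughter strands. The TET enzymes oxidise 5-methylcytosine, which opens the way to its removal. TRIM28 is brought to DNA by zinc finger proteins and carries SETDB1, which methylates lysine 9 of histone H3, while SMCHD1 keeps genes silent on the inactive X chromosome and at some imprinted loci. Since *Firre* is X-linked and its RNA and locus have been tied to the inactive X, the comparisons ask whether cells without the locus carry a different level of these silencing factors, and whether female and male cells differ.

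All 10 genes are autosomal. In the mm9 coordinates of the files, *Dnmt1* lies at chr9:20711650-20757317, *Uhrf1* at chr17:56442744-56462909, *Dnmt3a* at chr12:3806007-3914443 and *Dnmt3b* at chr2:153475186-153513466. *Tet1* lies at chr10:62267318-62361866, *Tet2* at chr3:133126643-133207354 and *Tet3* at chr6:83312367-83391672. *Trim28* lies at chr7:13609501-13616384, *Setdb1* at chr3:95127447-95161124 and *Smchd1* at chr17:71693829-71824683. An annotated antisense transcript shares 133 exonic bases with *Dnmt3a*, and *Lass2* on the opposite strand shares 64 exonic bases with *Setdb1*. The counting is not stated to use strand, so these short stretches are counted with some doubt. The expected counts of *Setdb1* were not whole in any library those of *Uhrf1* were whole in 3 of the 12, and those of *Dnmt3a* and *Tet1* in 11, where whole means within 0.005 of a whole number and the other 6 genes were whole in all 12. So part of the reads of these genes had been shared out among more than 1 alignment.

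The promoters of these genes differ in their content of CpG. RefSeq gave start sites for all 10 genes, in 15 windows of 250 bases before a start, each matched once in NCBIM37 (mm9). The median window of 32851 across the genome held 6 CpGs. *Tet2* held 51 CpGs, as many as only 0.067% of all windows, whereas *Trim28* held 17 and *Setdb1* 13. These 3 windows are printed because they belong to the genes that later differed between female and male cells in both genotypes. Capitals mark the GC box GGGCGG, the CCAAT box CCAAT, the E2F-type motif TTTNGCGC and the E-box CACGTG, read on both strands. The GC box is held by 32.7% of all windows, the CCAAT box by 33.8%, the E2F-type motif by 1.13% and the E-box by 6.02%. The *Trim28* window is chr7:13609251-13609500 on the plus strand, the *Setdb1* window chr3:95161125-95161374 on the minus strand, and the *Tet2* window chr3:133207355-133207604 on the minus strand.
Trim28: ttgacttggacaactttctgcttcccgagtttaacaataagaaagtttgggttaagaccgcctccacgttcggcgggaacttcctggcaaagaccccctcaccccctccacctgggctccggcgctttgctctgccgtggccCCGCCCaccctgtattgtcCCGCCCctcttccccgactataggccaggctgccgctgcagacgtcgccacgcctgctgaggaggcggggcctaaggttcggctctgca
Setdb1: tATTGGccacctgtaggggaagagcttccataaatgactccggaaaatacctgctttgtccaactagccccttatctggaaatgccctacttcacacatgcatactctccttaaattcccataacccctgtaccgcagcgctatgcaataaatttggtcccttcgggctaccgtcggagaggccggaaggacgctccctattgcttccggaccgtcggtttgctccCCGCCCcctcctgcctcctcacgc
Tet2: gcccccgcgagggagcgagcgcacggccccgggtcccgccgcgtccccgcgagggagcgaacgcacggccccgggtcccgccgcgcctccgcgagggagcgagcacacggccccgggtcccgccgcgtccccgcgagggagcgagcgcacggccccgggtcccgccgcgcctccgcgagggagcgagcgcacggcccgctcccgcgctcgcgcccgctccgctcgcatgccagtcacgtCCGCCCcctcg

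*Trim28* held 2 matches to the GC box, *Setdb1* held 1 GC box and 1 CCAAT box, and *Tet2* held 1 GC box. None of these 3 windows held the E2F-type motif or the E-box. The E2F-type motif, named after the factors that drive genes of DNA replication, was found among the 15 windows in 1 of *Dnmt1* and 1 of *Uhrf1*. Both pieces are shown with 10 bases on each side because these are the genes of maintenance methylation. In the annotation of the files the *Dnmt1* piece, chr9:20757269-20757296 on the minus strand, falls in the first exon, and the *Uhrf1* piece, chr17:56443541-56443568 on the plus strand, falls in the first intron of the longer transcripts, before the start of shorter ones. A match describes letters and is no evidence of binding.
Dnmt1: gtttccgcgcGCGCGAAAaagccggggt
Uhrf1: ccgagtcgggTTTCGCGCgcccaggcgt

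The libraries held 42986516 to 65454660 expected counts, and every male library was deeper than every female library. *Firre* was at 90 to 129 expected counts in female WT, 239 to 307 in male WT and 0 in all 6 KO libraries. *Xist* was at 17445 or more in every female library and at most at 4 in every male library, and the 4 Y-linked genes examined were at 0 or 1 in every female library and at 1305 or more in every male library. The 11 fibroblast markers summed to between 16839 and 25198 CPM, counts scaled to a common library size, in every library. The 10 markers of pluripotent or primordial germ cells summed to 0.365 to 0.660 CPM, with *Pou5f1* and *Lin28a* at 0 in all libraries.

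Per length, *Trim28* was the most abundant of the 10 genes and *Tet1* the least. The level of *Trim28* averaged 71.5 CPM per kb of exon over the 12 libraries (range 61.2 to 79.0). The maintenance pair followed, with *Dnmt1* at 29.2 (26.7 to 35.7) and *Uhrf1* at 24.1 CPM per kb (21.3 to 29), and these neighbours overlapped. *Smchd1* averaged 15.7 CPM per kb, *Setdb1* 7.32 and *Tet3* 4.38, each range clear of its neighbours. The de novo enzyme *Dnmt3a* stood at 2.12 CPM per kb (1.85 to 2.36), above *Tet2* at 1.13 (0.903 to 1.37). The other de novo enzyme, *Dnmt3b*, was at 0.400 CPM per kb (0.334 to 0.479), and *Tet1* at 0.218 (0.146 to 0.332). Among the TET genes the order was thus *Tet3*, *Tet2*, *Tet1*, with no overlap between ranges. With the longest transcript in place of merged exons the order of the 10 was the same, although *Dnmt3a*, which has many annotated transcripts, moved to 3.65 CPM per kb. Its range was then 3.17 to 4.06 and overlapped that of *Tet3*, 3.84 to 4.94.

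**Figure D1:**
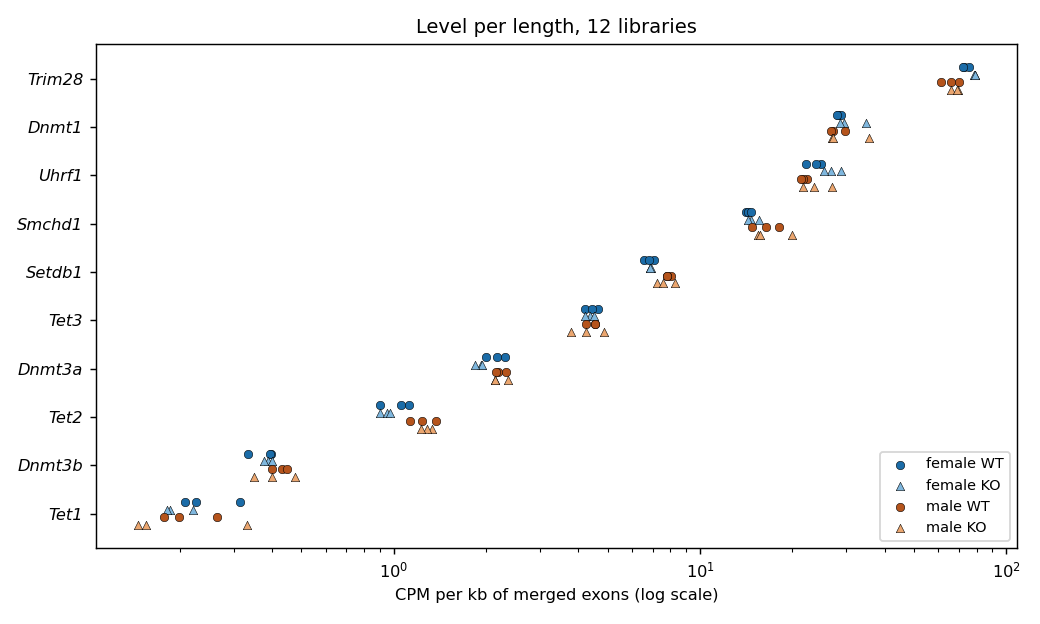
Level of each gene in CPM per kb of merged exons (log axis) for the 12 libraries, coloured by group. *Trim28* averages 71.5 and *Tet1* 0.218, and only the ranges of *Dnmt1* and *Uhrf1* overlap between neighbours.

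The scatter among libraries also set the genes apart. The coefficient of variation within a group, as the median of the 4 groups, was 2.65% for *Setdb1* and 2.71% for *Trim28*, against 7.46% for all tested genes. It was 22% for *Tet1*, whose expected counts were 121 to 256 per library. *Dnmt3b* was lower in counts, at 73 to 132, yet scattered less (7.58%). In the male groups the libraries numbered 3 stood apart from their replicates. The chi-square per degree of freedom between the counts of 2 libraries of a group was 35.2 and 41.9 for male WT 3 against the other two and 37.5 and 37.2 for male KO 3, where all other pairs of a group, female ones included, gave 7.11 to 15.5. Male WT 3 was the highest of its group for 6 of the 10 genes (40% of all tested genes) and the highest of all 12 libraries for 0 of the 10 (13.2% of all tested genes). Male KO 3 was the highest of its group for 8 of the 10 genes (41.4% of all tested genes). It held the highest CPM of all 12 libraries for 7 of the 10 genes, where 12.2% of all tested genes had their maximum. They were *Dnmt1*, *Dnmt3a*, *Dnmt3b*, *Smchd1*, *Tet1*, *Tet3* and *Setdb1*.

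The question of the *Firre* deletion was put first to the maintenance genes. *Dnmt1*, the maintenance methyltransferase, was at 148, 152 and 147 CPM in female WT and at 155, 183 and 151 in female KO. In male cells it was at 143, 141 and 156 CPM in WT and at 142, 143 and 188 in KO. The groups overlapped in both sexes, and the mean of each KO group was raised by 1 library, female KO 2 and male KO 3. The log2 fold change of KO against WT was 0.13 ± 0.10 (SE) in female and 0.11 ± 0.10 in male MEFs, with edgeR adjusted p = 0.801 and 1. Without female KO 2 the female value was 0.04, and without male KO 3 the male value was -0.04.

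*Uhrf1*, the reader of half-methylated CpGs, was at 94.5, 106 and 102 CPM in female WT and at 114, 123 and 108 in female KO. It was at 95.4, 92.4 and 90.7 CPM in male WT and at 92.0, 100 and 115 in male KO. All 3 female KO libraries lay above all 3 female WT libraries, while the male groups overlapped. The log2 fold change was 0.19 ± 0.08 in female MEFs (adjusted p = 0.625) and 0.14 ± 0.08 in male MEFs (adjusted p = 1). Averaged over both sexes it was 0.17, with a 95% interval of 0.04 to 0.29, and the largest positive value of the 10 genes, but the adjusted p was 0.751.

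Over the 12 libraries, the tested genes whose log2 CPM correlated most with *Dnmt1* were *Melk* (Pearson's r = 0.980), *Tyms* (0.967), an enzyme of thymidine synthesis, and *Wdhd1* (0.965), a replication factor. For *Uhrf1* they were *Cdca3* (0.968), *Ube2c* (0.964), which acts in mitotic exit, and *Hnrnpm* (0.955), an RNA-binding protein. These are descriptions over libraries that share their groups, with no test. The 16 proliferation genes listed summed to 1893 to 2022 CPM in female WT, 1998 to 2295 in female KO, 1787 to 2035 in male WT and 1822 to 2457 in male KO. The highest sums, 2295 and 2457, came from female KO 2 and male KO 3, the same libraries in which *Dnmt1* and *Uhrf1* were highest. Male WT 3 had the next highest sum of a library, 2035, with *Dnmt1* at 156 CPM and the lowest *Uhrf1* of all 12 libraries, 90.7 CPM. Averaged over the sexes, the 16 proliferation genes had a median log2 fold change of 0.12 in KO against WT, all 16 above 0 and none past the test, against a median of -0.002 for all genes. Apart from female KO 2 and male KO 3, the KO sums were 2032 and 1998 CPM in female and 1822 and 1928 in male. The part of proliferation in the values of *Dnmt1* and *Uhrf1* was not tested.

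Neither de novo methyltransferase passed in KO against WT. *Dnmt3a* was at 38.3, 33.3 and 36.1 CPM in female WT and at 32, 32.3 and 30.7 in female KO, so that every female KO library lay below every female WT library. In male cells it was at 36.4, 35.8 and 38.8 CPM in WT and at 35.6, 35.5 and 39.3 in KO, which overlapped. The log2 fold change was -0.18 ± 0.06 in female MEFs (adjusted p = 0.554) and -0.01 ± 0.06 in male MEFs (adjusted p = 1). The difference between these 2 effects was -0.17, with a 95% interval of -0.36 to 0.02, and did not pass the test (adjusted p = 1). *Dnmt3b* was at 1.71 to 2.03 CPM in female WT and 1.92 to 2.04 in female KO, and at 2.05 to 2.29 and 1.79 to 2.44 in male WT and KO, with log2 fold changes of 0.05 ± 0.14 and -0.06 ± 0.14.

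Among the TET dioxygenases, *Tet1* had the widest intervals. It was at 3.34, 3.07 and 4.65 CPM in female WT and at 2.74, 3.26 and 2.68 in female KO, a log2 fold change of -0.35 ± 0.30 with a 95% interval of -1.01 to 0.31. With each library left out in turn the value ran from -0.47 to -0.15, the latter without female WT 3. In male WT it was at 2.62, 2.94 and 3.90 CPM, and in male KO at 2.15, 2.28 and 4.89, so that library 3 was the highest of both male groups. *Tet2* had log2 fold changes of -0.13 ± 0.09 in female and 0.04 ± 0.09 in male MEFs. *Tet3* was at 46.7 to 51.3 CPM in female WT and 46.8 to 50.0 in female KO, with a log2 fold change of -0.02 ± 0.08, and had -0.05 ± 0.08 in male MEFs.

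Of the histone methylation pair, *Trim28*, the scaffold, was at 293, 305 and 292 CPM in female WT and at 319, 317 and 319 in female KO. Here too the female groups did not overlap, though the log2 fold change was only 0.10 ± 0.05 (adjusted p = 0.674). In male cells it was at 284, 267 and 248 CPM in WT and at 266, 282 and 278 in KO, and the log2 fold change was 0.05 ± 0.05. *Setdb1*, its partner methyltransferase, had log2 fold changes of 0.02 ± 0.05 in female and -0.04 ± 0.05 in male MEFs. *Smchd1*, the silencing factor of the inactive X, was at 107, 109 and 111 CPM in female WT and at 111, 118 and 109 in female KO. It was at 124, 112 and 137 CPM in male WT and at 117, 119 and 151 in male KO, and its log2 fold change was 0.05 ± 0.09 in both sexes.

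**Figure D2:**
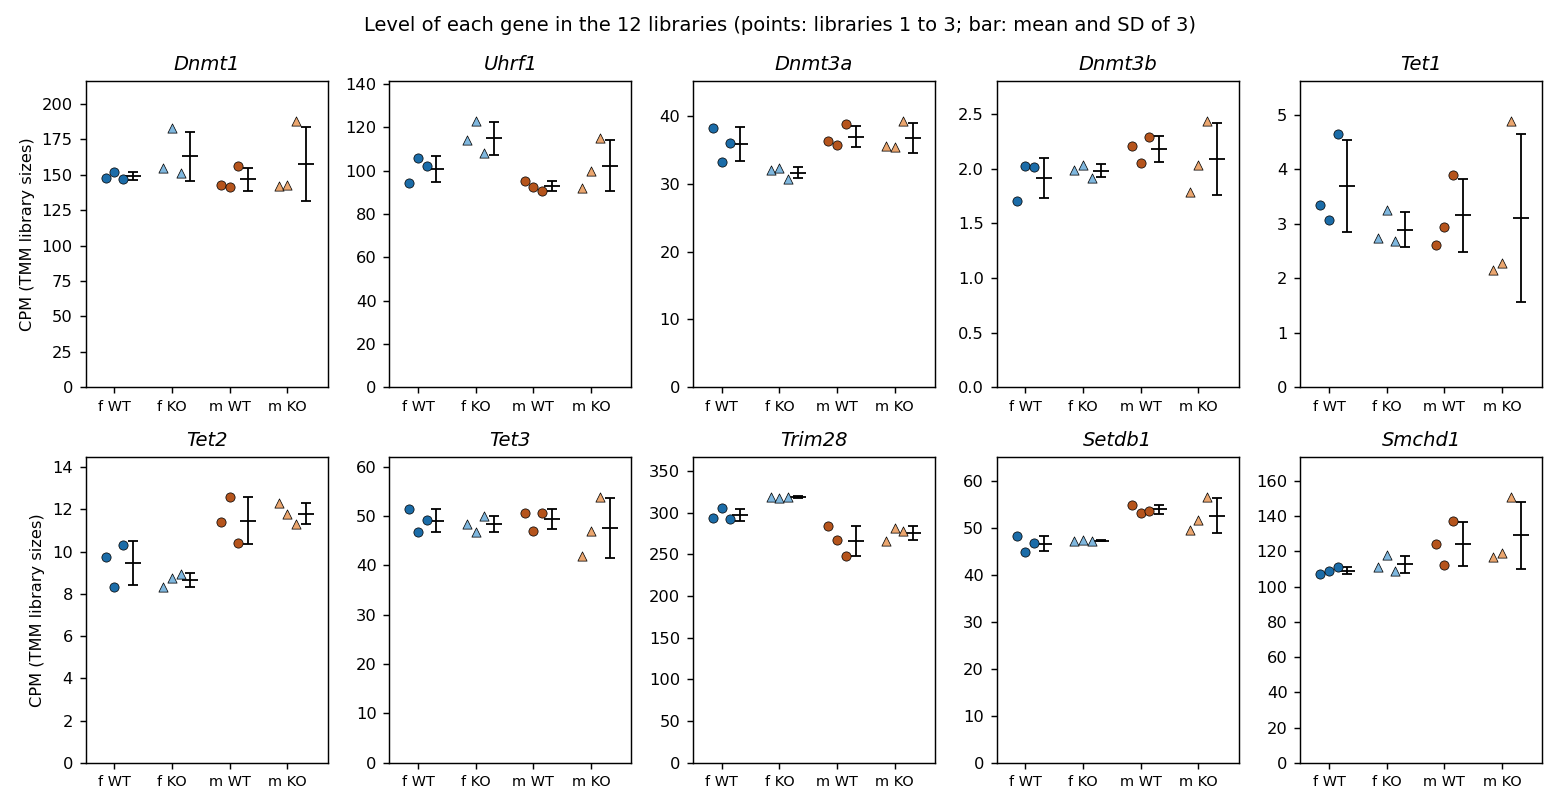
CPM of each gene in the 12 libraries, with axes from 0. Points are libraries 1 to 3 of female (f) and male (m) WT and KO, and bars are the mean and SD of 3. *Trim28* lies at 317 to 319 in female KO and at 248 to 284 in male WT.

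None of the 10 genes passed adjusted p under 0.05 in KO against WT, in female MEFs, in male MEFs or averaged over both. At that threshold 0.0130% of all tested genes passed in female MEFs (2 genes), 0.00650% in male MEFs (1 gene) and 0.0195% in the average (3 genes), so a count of 0 of 10 does not set these genes apart. *Firre*, the deleted gene, was among those that passed in each comparison, with log2 fold changes of -9.84, -10.96 and -10.40. It was the only one in male MEFs. None of the 10 genes passed the thresholds of the study either, an adjusted p under 0.01 with an absolute log2 fold change over 1. These were passed by 0.00650% of genes in each of the 3 comparisons, which was *Firre* alone. The difference of the KO effect between the sexes passed at either threshold for 0 of 10 genes and for 0% of all genes, with 3.19% of all genes (491) and 0 of the 10 at an unadjusted p under 0.05. At an unadjusted p under 0.05, 2 of the 10 genes (*Dnmt3a* and *Uhrf1*) and 7.55% of all genes (1162) lay in female MEFs, 0 of 10 and 2.06% (317) in male MEFs, and 2 of 10 (*Uhrf1* and *Trim28*) and 6.24% (960) in the average. By DESeq2 30 genes passed adjusted p under 0.05 in female and 5 in male MEFs, with none of the 10 among them. In female MEFs the libraries of WT and KO did not overlap for 3 of the 10 genes (*Dnmt3a*, *Uhrf1* and *Trim28*), against 19.1% of all tested genes. Of the marker lists, that of epithelial cells shifted most in this comparison, though none of the markers listed passed the test. The median log2 fold change was -0.01 for the macrophage, 0.05 for the skeletal muscle and -0.03 for the neural markers. Of the 7 epithelial markers 6 had a log2 fold change below 0 in female KO against WT, with a median of -1.22, and the keratin gene *Krt5* averaged 5.87 CPM in female WT and 0.538 in female KO (-3.45 ± 0.90, adjusted p = 0.497). *Lum*, a proteoglycan of the collagen matrix that was listed with the fibroblast markers, averaged 7.56 and 1.80 CPM (-2.07 ± 0.35, adjusted p = 0.351). The 11 fibroblast markers had a median of -0.12, and 2 of them, *Vim* (0.14 ± 0.05) and *Fn1* (0.10 ± 0.16), were above 0. *Krt5* and *Lum* were among the largest differences of female against male WT, so high female WT values helped to pick them. The epithelial sums overlapped, at 74.6 to 129 CPM in female WT and 76.1 to 81.6 in female KO, and the part of these cells in the values of the 3 genes was not tested. In male MEFs the libraries of WT and KO overlapped for all 10 genes, and failed to overlap for 5.29% of all tested genes. Without male KO 3, the male log2 fold change was 0.05 for *Uhrf1*, -0.08 for *Smchd1* and -0.50 for *Tet1*, and without male WT 3 that of *Tet1* was 0.16. None of the 10 genes passed without either library.

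The intervals bound what these libraries could have shown. Over the 10 genes the log2 fold changes ran from -0.35 to 0.19 in female MEFs (median 0.03) and from -0.06 to 0.14 in male MEFs (median 0.02), beside medians of all genes near 0. The lowest bound of any 95% interval in female MEFs was a fold of 0.495 and the highest 1.29. In male MEFs these bounds were 0.625 and 1.55. The extremes came from *Tet1* and *Dnmt3b*, the genes of fewest counts. For *Trim28*, averaged over both sexes, the interval ran only from 1.00 to 1.11 in fold, and for *Setdb1* from 0.942 to 1.05.

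**Figure D3:**
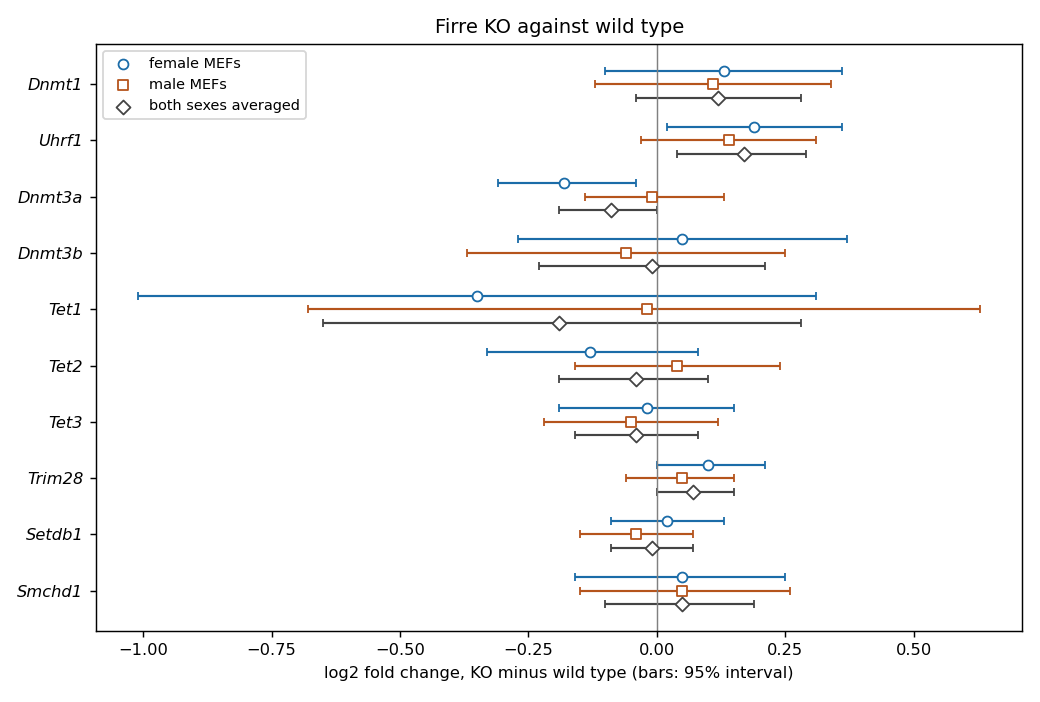
Log2 fold change of Firre KO against WT for the 10 genes in female MEFs, male MEFs and their average, with 95% intervals. Open symbols mark values that did not pass adjusted p under 0.05, which is all of them, and the values run from -0.35 (*Tet1*, female) to 0.19 (*Uhrf1*, female).

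The other genes of these pathways gave the same count. Of the 16 partners of methylation listed (readers, remodellers and replication factors), 15 were tested, and *Dnmt3l*, a cofactor of the de novo enzymes in germ cells, reached at most 5 expected counts. Of 13 genes of demethylation and base excision 12 were tested, of 18 genes of histone H3 lysine 9 silencing all were tested in 19 rows, and of 10 genes of X inactivation 9 were found and tested. None of these 55 rows passed in KO against WT in either sex or on average. *Pcna*, the replication clamp that DNMT1 binds, had log2 fold changes of 0.04 ± 0.07 and 0.12 ± 0.07 in female and male MEFs, and *Usp7*, a deubiquitinase that binds DNMT1, had -0.03 ± 0.05 and -0.01 ± 0.05. In female MEFs the log2 fold change of *Xist* was -0.08 ± 0.08 (adjusted p = 0.865).

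Germline genes that promoter methylation keeps silent in somatic cells stayed close to 0 in all groups. The 14 listed summed to 0.906 to 1.09 CPM in female WT, 0.509 to 0.793 in female KO, 0.861 to 1.22 in male WT and 0.478 to 0.917 in male KO. *Hormad1* and *Tex101* were at 0 in all 12 libraries, and only *Ddx4* and *Tdrd1* had counts enough to be tested. *Ddx4*, a germ cell helicase that reached at most 47 expected counts, had log2 fold changes of -1.14 ± 0.63 and -0.61 ± 0.57 in female and male MEFs. *Tdrd1*, a factor of the piRNA pathway, had -0.16 ± 0.30 and -0.73 ± 0.29. Neither gene passed the test in either sex.

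Between female and male cells 3 of the 10 genes passed adjusted p under 0.05 in WT and 4 in KO, where 38.7% of all tested genes passed in each genotype. *Trim28* was higher in female MEFs, at 292 to 305 CPM against 248 to 284 in male WT, and at 317 to 319 against 266 to 282 in male KO. The log2 fold change of female against male was 0.16 ± 0.05 in WT (adjusted p = 0.0241) and 0.21 ± 0.05 in KO (adjusted p = 0.00549), higher in all 3 female libraries each time. *Setdb1* went the other way, at 48.3, 45.0 and 46.8 CPM in female WT and at 55.0, 53.3 and 53.6 in male WT. In KO it was at 47.2, 47.4 and 47.2 CPM in female and at 49.5, 51.7 and 56.7 in male MEFs, so the groups did not overlap in either genotype. Its log2 fold change was -0.21 ± 0.05 in WT (adjusted p = 0.00747) and -0.15 ± 0.05 in KO (adjusted p = 0.0316).

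*Tet2* was also lower in female MEFs. It was at 9.75, 8.31 and 10.3 CPM in female WT against 11.4, 12.6 and 10.4 in male WT, and the nearest libraries of the groups were 10.3 and 10.4. In KO it was at 8.31, 8.73 and 8.96 CPM in female and at 12.3, 11.8 and 11.3 in male MEFs, well apart. The log2 fold change was -0.28 ± 0.09 in WT (adjusted p = 0.0344) and -0.45 ± 0.09 in KO (adjusted p = 0.00348). The WT call of *Trim28* was lost without female WT 2 (log2 fold change 0.13, adjusted p = 0.0898), without male WT 2 (0.16, 0.0568) and without male WT 3 (0.11, 0.0684). It was also lost with no filter on low counts (0.14, 0.0648) and with only the 6 libraries compared (0.16, 0.0621). The WT call of *Setdb1* held without any of the 12 libraries. The WT call of *Tet2* was lost when female WT 2 was left out (log2 fold change -0.19, adjusted p = 0.128), and likewise without female WT 1 (-0.30, 0.0581), male WT 1 (-0.28, 0.0746) or male WT 2 (-0.21, 0.127). It was lost as well with total counts alone in place of TMM normalization (-0.25, 0.0559), with only the 6 libraries compared (-0.27, 0.0869) and with the replicate number as a block (-0.28, 0.0555). The KO calls of *Trim28* and *Tet2* held without any of the 12 libraries. The KO call of *Setdb1* was lost without any 1 of the 3 female KO libraries (adjusted p = 0.0673 to 0.076) and without male KO 3 (log2 fold change -0.10, adjusted p = 0.0839), and with only the 6 libraries compared (-0.15, adjusted p = 0.0937). Without both male libraries numbered 3, the WT call of *Trim28* (0.11, adjusted p = 0.0573) and the KO call of *Setdb1* (-0.10, adjusted p = 0.0733) were lost.

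*Dnmt3a* differed between the sexes in KO, at 30.7 to 32.3 CPM in female and 35.5 to 39.3 in male MEFs (log2 fold change -0.21 ± 0.06, adjusted p = 0.0173). The call was lost without female KO 3 (-0.19, adjusted p = 0.0624) and without male KO 3 (-0.17, adjusted p = 0.0517). In WT its value was -0.04 ± 0.06 (adjusted p = 0.607). A call in one genotype and not in the other does not show that the genotypes differ, and the test of that difference is the one given above for the KO effect between the sexes (adjusted p = 1). *Smchd1* had the same value in both genotypes, -0.19 ± 0.09, and did not pass (adjusted p = 0.135 in WT and 0.125 in KO), although all 3 female WT libraries (107 to 111 CPM) lay below all 3 male WT libraries (112 to 137). Without male KO 3 the WT value was again -0.19 and passed (adjusted p = 0.0296), while the KO value was -0.07 (adjusted p = 0.473). *Uhrf1* had 0.12 ± 0.08 and 0.17 ± 0.08 (adjusted p = 0.257 and 0.113), and its KO value was 0.26 both without male KO 3 (adjusted p = 0.0126) and without both male libraries numbered 3 (adjusted p = 0.0122). *Dnmt1*, *Dnmt3b*, *Tet1* and *Tet3* did not pass in either genotype, although without male KO 3 *Tet1* turned from -0.10 to 0.38 in KO.

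These counts have to be read against the whole transcriptome. At adjusted p under 0.05, 18.9% of all tested genes were higher and 19.8% lower in female WT, and 18.9% and 19.7% in female KO. Of the 10 genes, 1 was higher and 2 were lower in WT, and 1 was higher and 3 were lower in KO, which is near that background. With an absolute log2 fold change over 1 and adjusted p under 0.01, 4.54% of all genes passed in WT and 3.89% in KO, and 0 of the 10. The libraries of female and male did not overlap for 5 of the 10 genes in WT, against 51.9% of all genes, and for 4 in KO, against 50.2%. Cell type markers differed in the same comparison. The 10 macrophage markers summed to 52.0 to 93.2 CPM in female WT and 41.1 to 129 in female KO, against 10.5 to 16 in male WT and 8.75 to 17.6 in male KO, and 9 of 10 passed as higher in female WT and all 10 in female KO. The 7 epithelial markers summed to 74.6 or more in every female library, and to 40.8 to 53.7 and 43.5 to 46.5 CPM in male WT and KO, with 7 and 2 of them passed as higher. Of the 6 skeletal muscle markers tested, 3 passed as higher in female WT and 4 in female KO, and 0 as lower. *Myog*, a regulator of muscle differentiation, averaged 2.63 and 2.50 CPM in female WT and KO against 0.130 and 0.117 in male WT and KO. The sums of all 7 muscle markers overlapped between the sexes, at 95.1 to 138 and 85.0 to 140.4 CPM in female WT and KO and 103 to 145 and 78.3 to 115 in male WT and KO. Of the 5 neural markers tested, 1 passed as higher in female WT and 3 in female KO, and 0 as lower, among them *Sox10*, a factor of neural crest and glia, with log2 fold changes of 1.85 ± 0.42 and 2.26 ± 0.43. The 6 neural markers found summed to 626 to 661 and 592 to 796 CPM in female WT and KO, and 459 to 632 and 462 to 544 in male WT and KO. Of the 11 fibroblast markers, 1 passed as higher and 3 as lower in female WT, and 2 and 4 in female KO. Their median log2 fold change was -0.43 in WT and -0.32 in KO, and *Col5a1*, a fibrillar collagen, had -0.75 ± 0.16 and -0.73 ± 0.16. *Lum* was the one that passed as higher in WT, by 3.95 ± 0.39, and it was higher in KO by 1.01 ± 0.37, as was *Vim*, an intermediate filament gene, by 0.17 ± 0.05. The fibroblast sums were 16839 to 20706 and 18157 to 20858 CPM in female WT and KO, and 20001 to 25198 and 19697 to 25147 in male WT and KO. The part of these marker groups in the differences of *Trim28*, *Setdb1* and *Tet2* was not tested.

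**Figure D4:**
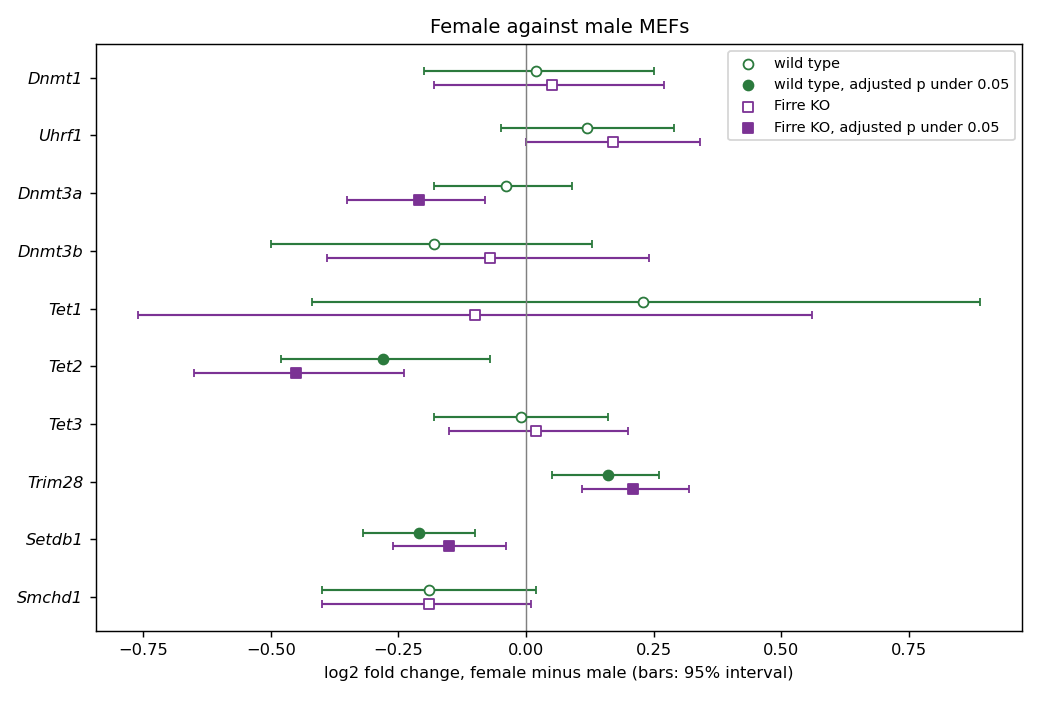
Log2 fold change of female against male MEFs in WT and in Firre KO, with 95% intervals. Filled symbols passed adjusted p under 0.05: *Trim28* (0.16 and 0.21), *Setdb1* (-0.21 and -0.15) and *Tet2* (-0.28 and -0.45) in both genotypes, and *Dnmt3a* (-0.21) in KO.

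Since *Trim28* and *Setdb1* differed between the sexes in opposite directions, their ratio within a library, which no library size enters, was computed. It was chosen after their values had been seen. The ratio of *Trim28* to *Setdb1* expected counts was 6.07 to 6.78 in female WT and 6.69 to 6.76 in female KO, against 4.62 to 5.17 in male WT and 4.90 to 5.46 in male KO. All 6 female libraries lay above all 6 male libraries. No test is given, since the pair was picked for its opposite differences. The ratio of *Tet3* to *Tet2* was 4.76 to 5.62 in female WT and 5.36 to 5.82 in female KO, and 3.73 to 4.86 and 3.41 to 4.75 in male WT and KO, so the groups overlapped in WT and did not in KO. The ratio of *Dnmt1* to *Uhrf1* lay between 1.36 and 1.72 over the 12 libraries.

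**Figure D5:**
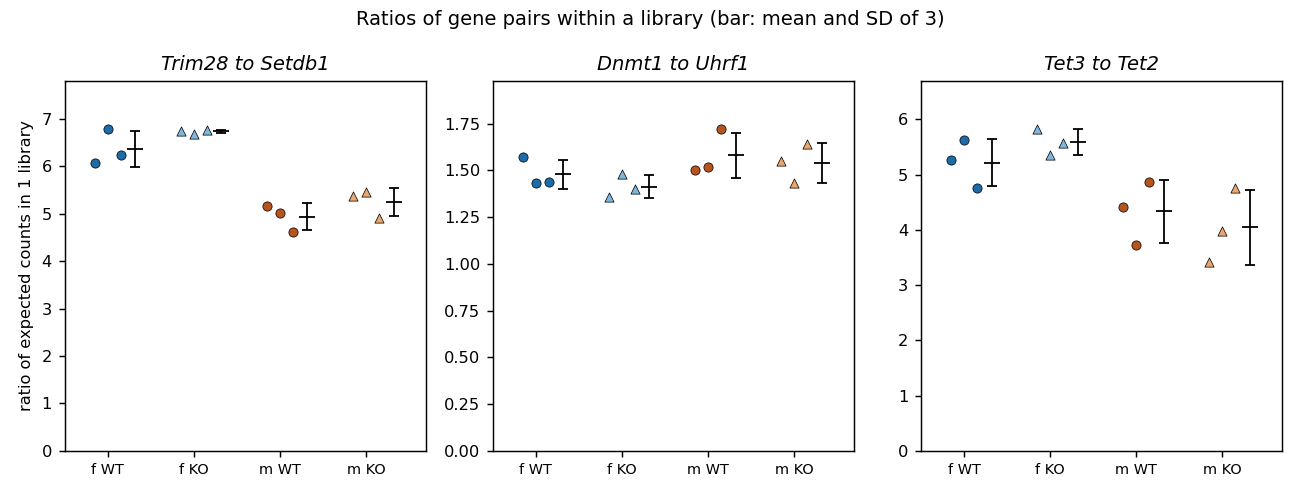
Ratios of expected counts of gene pairs within each library, with axes from 0, in female (f) and male (m) WT and KO, with the mean and SD of 3. The ratio of *Trim28* to *Setdb1*, a pair picked for its opposite differences, is 6.07 or more in every female library and 5.46 or less in every male library.

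The genes whose pattern over the 12 libraries was most like that of *Trim28* were *Ubqln4* (r = 0.982), *Rcc2* (0.973) and *Hdgf* (0.972). For *Setdb1* they were *9430015G10Rik* (0.976), *Lca5* (0.968) and *Yeats2* (0.966), and for *Tet2* they were *Twsg1* (0.950), *Ogn* (0.950) and *BC031353* (0.948). For *Smchd1* they were *Ss18* (0.990), *Atp2b1* (0.988) and *Terf1* (0.978). The highest values were lower for *Dnmt3a* (*Gm16211*, 0.937), *Tet1* (*Trnt1*, 0.940), *Dnmt3b* (*Elp2*, 0.913) and *Tet3* (*Zfp629*, 0.859). The libraries share sex and depth, and each maximum was picked from all tested genes of mean CPM 5 or more, so these values describe the libraries only.

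In the wider pathways the differences between the sexes ran in both directions. Of the 55 tested rows, 11 were higher and 14 lower in female WT, and 8 and 12 in female KO. Over all tested genes 18.9% were higher and 19.8% lower in WT, and 18.9% and 19.7% in KO, and the counts of these rows and of the lists within them are descriptions, with no test against these shares. The number higher in WT fell to 5 without female WT 2 and to 6 without female WT 1, and the number higher in KO became 14 without male KO 3. Of the 15 tested partners of methylation, 3 were higher and 4 lower in female WT, and 1 was higher and 3 lower in female KO. They included *Zbtb4*, a reader of methylated CpG, with log2 fold changes of -0.71 ± 0.09 in WT and -0.59 ± 0.09 in KO, *Zbtb38*, another reader, with -0.61 ± 0.11 and -0.58 ± 0.11, and *Uhrf2*, the relative of *Uhrf1*, with -0.52 ± 0.05 in both (adjusted p = 6.8e-05 and 6.3e-05). *Cdca7l*, a relative of the cell cycle gene *Cdca7*, passed in WT (-0.61 ± 0.15, adjusted p = 0.00805) and was at -0.30 ± 0.15 in KO (adjusted p = 0.132). *Mbd3*, a subunit of the NuRD complex, was higher in female MEFs (0.15 ± 0.04 and 0.27 ± 0.04).

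Of the 12 demethylation genes, 5 were higher and 3 lower in female WT, and 4 and 3 in KO. *Gadd45b*, a stress response gene implicated in demethylation, had log2 fold changes of 0.98 ± 0.06 in WT and 0.83 ± 0.06 in KO. *Gadd45g*, of the same family, had 0.66 ± 0.14 and 0.56 ± 0.14. *Apobec1*, a cytidine deaminase, passed in WT (0.83 ± 0.30, adjusted p = 0.0483) and was at 0.57 ± 0.30 in KO (adjusted p = 0.158). *Ogt*, the X-linked sugar transferase that binds TET proteins, was lower in female MEFs, with -1.0 ± 0.07 and -1.02 ± 0.07. So was *Neil1*, a DNA glycosylase of base excision, with -1.03 ± 0.15 and -0.54 ± 0.15.

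Of the 19 rows of the lysine 9 list, 1 was higher and 7 were lower in female WT, and 1 and 6 in KO. *Zfp57*, a zinc finger protein that brings TRIM28 to imprinted loci, had log2 fold changes of -0.63 ± 0.06 in WT and -0.69 ± 0.06 in KO. *Atrx*, an X-linked remodeller of heterochromatin, had -0.44 ± 0.07 and -0.49 ± 0.07, and *Mphosph8*, a subunit of the HUSH complex, had -0.41 ± 0.06 and -0.37 ± 0.06. *Fam208a*, another subunit of HUSH, passed in KO (-0.43 ± 0.15, adjusted p = 0.0433) and was at -0.39 ± 0.15 in WT (adjusted p = 0.0636). *Atf7ip*, a partner of SETDB1, has 2 rows in the table, which were at -0.26 ± 0.06 and -0.39 ± 0.08 in WT, where both passed, and at -0.09 ± 0.06 and -0.21 ± 0.08 in KO, where neither did. The single row that was higher was *Chaf1b*, a histone chaperone of replication (0.32 ± 0.09 and 0.24 ± 0.09), named after its values were seen. Of the 9 X inactivation genes, only *Xist* and *Spen*, which carries the silencing by *Xist*, passed, and *Spen* was higher in female MEFs by 0.20 ± 0.06 in WT and 0.35 ± 0.06 in KO. Of the 16 proliferation genes, 2 were higher and 1 lower in female MEFs in each genotype, among them *Rrm2* (0.43 ± 0.10 and 0.29 ± 0.10) and *Mki67* (-0.42 ± 0.13 and -0.41 ± 0.13).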

How the data were processed

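Total RNA of MEFs was sequenced in 12 libraries by the authors, who mapped the reads with Bowtie2 and deposited expected counts per gene from RSEM 1.2.29 on mm9. Their own comparisons used DESeq2 1.4.5 in R 3.1.0. Here the deposited expected counts were rounded, and genes with low counts were removed by filterByExpr, which left 15387 genes. Groups were compared by edgeR 4.0.16 (R 4.3.3, quasi-likelihood F test, TMM normalization) with 1 mean per group over all 12 libraries, and p-values were adjusted by Benjamini-Hochberg over all tested genes. SEs and 95% intervals come from the same fit. CPM used TMM library sizes, and levels per kb used merged exons of GENCODE M1. Promoter windows came from RefSeq (GRCm38.p6) and were placed on NCBIM37 by exact match. DESeq2 1.42.0, other scalings and filters, a replicate block and leaving out each library served as alternatives. The leaving out of both male libraries numbered 3, the ratios and the longest transcript were added after seeing the data. The 10 genes, the lists and the tests were chosen with earlier results of these data known. Genes of the lists were named from the up to 4 largest changes past the test per comparison and the 2 highest levels, except for *Chaf1b* and genes at or near 0. The Hi-C files of C2C12 cells were not used here.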

Additional observations from a re-analysis of the deposited data

How the results depend on the processing

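None of the 10 genes passed in KO against WT, at either threshold, in female or male MEFs under the 20 alternatives run, or on average or in the difference of the effects under the 19 run for these. Over all comparisons 1115 of 1180 recomputed log2 fold changes of the 10 genes kept their sign, and the 65 that turned belonged to values that had passed no test. The counts of all genes that passed adjusted p under 0.05 in KO against WT moved, from 2 in female, 1 in male and 3 on average to 30, 5 and 25 with DESeq2, and were 9 in female and 5 on average without both male libraries numbered 3. They were 1, 0 and 0 with at least 10 counts in every library, a filter that by design removes *Firre*. The deleted gene was at 0 in all KO libraries and among the genes counted in each comparison, so part of this fall was fixed in advance. With only the 6 libraries compared they were 4 in female and 2 in male.

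Between female and male WT the count of the 10 genes past the test went from 3 to 1 (*Setdb1*) with only the 6 libraries compared, and ranged from 1 to 4 when each library was left out. In KO it went from 4 to between 2 and 4. Among the 55 tested rows of the wider pathways, the number higher in female WT was 6 with no filter on low counts and 5 to 13 with each library left out, and the number higher in female KO was 7 to 14, and 14 without both male libraries numbered 3. By the rule that every pair of same-numbered libraries must correlate above 0.1 in its deviations, the replicate numbers did not pair the libraries. Between WT and KO the 3 pairs gave -0.164 to -0.118 in female and 0.0966 to 0.333 in male MEFs, where the pair numbered 3 was the highest, the pairs across the sexes gave -0.126 to 0.134, and 5 of the 12 libraries correlated best with their own number. With the replicate block 2 of the 10 genes passed between female and male WT, since *Tet2* did not (-0.28, adjusted p = 0.0555), and the *Smchd1* difference of the KO effect between the sexes turned to 0.000.

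Most of the other values that changed sign lay near 0, while *Tet1* turned over a wide range. With total counts alone in place of TMM, *Dnmt3a* in male KO against WT was 0.003, *Dnmt1* in the difference of the effects -0.006, and *Tet3* in female against male WT 0.02. With at least 10 counts in every library the last was 0.002. Without both male libraries numbered 3, *Smchd1* and *Trim28* in male KO against WT were -0.007 and -0.01, *Smchd1* in the difference of the effects 0.05, *Tet3* in female against male WT 0.01, and *Dnmt3b* and *Tet1* in female against male KO 0.05 and 0.38. With each library left out in turn, the values that turned ranged as follows in female KO against WT: *Dnmt3b* -0.03 to 0.09, *Tet3* -0.05 to 0.01, *Setdb1* -0.007 to 0.04. In male KO against WT they were *Dnmt1* -0.04 to 0.18, *Dnmt3a* -0.06 to 0.03, *Dnmt3b* -0.19 to 0.04, *Smchd1* -0.08 to 0.12, *Tet1* -0.50 to 0.18, *Tet2* -0.02 to 0.12, *Tet3* -0.15 to 0.03, *Trim28* -0.003 to 0.10 and *Setdb1* -0.09 to 0.005. On average they were *Dnmt3b* -0.07 to 0.04, *Smchd1* -0.02 to 0.09, *Tet3* -0.09 to 0.005 and *Setdb1* -0.04 to 0.01. In the difference of the effects they were *Dnmt1* -0.07 to 0.17, *Uhrf1* -0.02 to 0.14, *Smchd1* -0.08 to 0.12, *Tet1* -0.54 to 0.15 and *Tet3* -0.05 to 0.13. In female against male WT they were *Dnmt1* -0.004 to 0.07, *Dnmt3a* -0.09 to 0.007 and *Tet3* -0.04 to 0.03, and in KO *Dnmt1* -0.05 to 0.19, *Dnmt3b* -0.17 to 0.05, *Tet1* -0.31 to 0.38 and *Tet3* -0.06 to 0.12. Among the values that kept their sign, *Tet1* ranged from -0.43 to -0.09 on average and from 0.03 to 0.41 in female against male WT, and *Tet2* from -0.21 to -0.06 in female KO against WT. The cause of these changes was not tested. *Dnmt3b* and *Tet1* had the fewest counts of the 10 genes, 73 to 256 per library.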
